A study of Sus scrofa with 40 samples.

Results

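Skeletal muscle contracts when calcium leaves the sarcoplasmic reticulum, the membrane store that surrounds each myofibril, and relaxes when calcium is pumped back. ATP2A1 (SERCA1) is the calcium pump of fast fibres and ATP2A2 (SERCA2) that of slow fibres and heart. CASQ1 and CASQ2 are the skeletal and the cardiac calsequestrin, the proteins that bind calcium inside the store. SLN (sarcolipin) and PLN (phospholamban) are small membrane peptides that inhibit the pumps, RYR1 is the channel through which the store empties, and PVALB (parvalbumin) buffers calcium in the cytosol of fast fibres. Fast and slow fibres are known to carry different sets of these proteins.

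The genes described here were taken by name, as 8 listed genes of calcium handling, and 6 of them matched a row among the 21280 genes of the deposited table. These were ATP2A1, ATP2A2, CASQ1, CASQ2, SLN and PVALB, and all 6 passed the filter on low counts. PLN and RYR1 were not analysed here. The libraries came from 4 meat cuts of Chalu black pigs, a pork breed: pork belly (PB), trapezius of the neck and shoulder (TM), hamstring of the hind leg (HM) and longissimus dorsi of the back (LDM), with 10 RNA sequencing libraries each and 40 in all. Every group shared its background: per the labels' protocols the pigs were males by a single sire, reared alike, fasted and slaughtered at an abattoir, and the muscle was taken from the left side soon after death and trimmed away from fascia. No age and no treatment is given in the sources used here. As the labels name no control cut, all 6 pairs were compared for differences in these genes. Libraries carry the numbers 1 to 10 in each cut, and nothing in the labels ties a number to an animal. The p-values therefore measure the spread between libraries, which may be in part technical. Same-numbered libraries of different cuts were in the median more alike than differently numbered ones, and the main fit does not use this.

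Total counts ran from 12305913 to 17735722 per library. The skeletal muscle marker list was high in every cut, its 9 measured genes summing to between 103987 and 174361 CPM in the 40 libraries. CPM are counts relative to the library total. The summed marker values are not TMM-scaled, whereas CPM of single genes are scaled by the TMM method. Summed slow fibre markers ran from 22452 to 56489 CPM in PB, from 10605 to 115775 in TM, from 13483 to 75056 in HM and from 7095 to 20940 in LDM. Summed fast fibre markers ran from 20356 to 67586 CPM in PB, from 11976 to 73943 in TM, from 18134 to 71384 in HM and from 63498 to 97464 in LDM. Against LDM, 8 of 8 slow fibre markers were higher and 8 of 8 fast fibre markers lower in each of PB, TM and HM. In bulk tissue, fewer cells of a type and less RNA per cell cannot be told apart. The heart muscle list, with 6 of 8 genes measured, stayed at or below 6.02 summed CPM in all libraries but HM6, with 15.8 CPM. Its genes MYH6 and NPPA were not analysed, and the model named MYH7 on the slow list is called MYH6 in the reference names. Of the 6 measured genes NPPB was at 0 in PB, TM and LDM and GATA4 at 0 in PB. Mitochondrially encoded genes took a median of 12.7% of counts in PB, 7.54% in TM, 9.84% in HM and 5.20% in LDM. Of the other lists against LDM, fibroblast markers were higher for 1 of 6 in PB and 1 in HM, leukocyte markers for 3 of 5 in PB and 1 in TM, while adipocyte markers were lower for 1 of 5 in PB. Of 5 Schwann cell markers 0 were higher and 2 lower in PB, 1 higher and 1 lower in TM, and 0 higher and 1 lower in HM. Of all genes tested, 20.5% were higher and 21.2% lower in PB than in LDM. In TM 11.3% were higher and 13.4% lower, and in HM 16.5% and 16.0%. The fibroblast and adipocyte counts were near these shares. The part of fibre makeup, other cells and mitochondrial counts in the results that follow was not tested.

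A few libraries stood apart from their cut. PB1 carries a PB title but a longissimus tissue label, and it was kept in PB by its title. From high to low among the 10 PB libraries, PB1 ranked 1 for SLN, 2 for CASQ1 and 10 for CASQ2. It ranked 4 for ATP2A1, 8 for ATP2A2 and 8 for PVALB. TM7 had the highest ATP2A1, CASQ1 and SLN and the lowest ATP2A2 and CASQ2 of the 10 TM libraries. HM9 had the same order among the HM libraries for these 5 genes, and also the highest PVALB. Their summed fast fibre markers, 73943 CPM in TM7 and 71384 CPM in HM9, were the highest of their cuts and lay within the LDM range. HM6 carried the most smooth muscle and pericyte markers, 7813 summed CPM against 1389 in the next HM library. Earlier results on these data had placed TM3, TM7, HM6 and HM9 nearer to another cut than to their own, and all results were also computed without these 4 libraries and without PB1.

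ATP2A1, CASQ1 and SLN were lower and ATP2A2 and CASQ2 higher in PB, in TM and in HM than in LDM, by between 1.68 and 4.75 times. PVALB did not differ from LDM beyond the threshold in any of them. In each of PB, TM and HM against LDM, 2 of the 6 genes were higher, 3 lower and 1 did not pass (edgeR quasi-likelihood test, adjusted p under 0.05). Of all 11713 genes tested, 41.7% were called in PB against LDM (20.5% higher and 21.2% lower). In TM against LDM 24.7% of all genes were called (11.3% higher and 13.4% lower), and in HM against LDM 32.5% (16.5% higher and 16.0% lower). All 6 genes also differed among the 4 cuts in the F test, which 57.2% of all genes passed. For PVALB this rested on 1 library, HM9, without which the adjusted p of the F test was 0.223. By the adjusted p of the F test, smallest first, the ranks of the 6 among 11713 genes were 383 for ATP2A2, 794 for CASQ1, 948 for SLN, 1403 for ATP2A1, 2928 for CASQ2 and 4351 for PVALB.

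**Figure D1:**
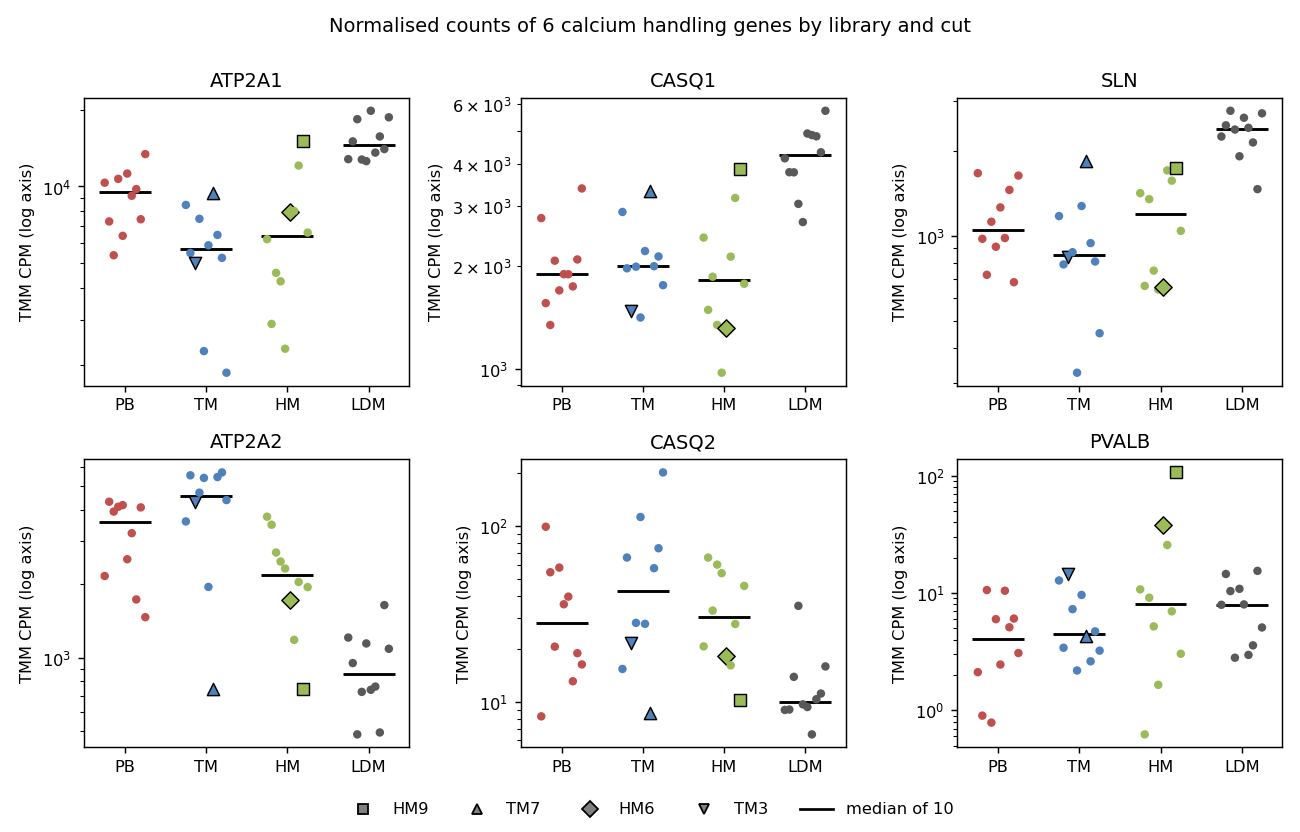
TMM CPM (log axis) of the 6 genes in each library of PB, TM, HM and LDM; each point is 1 library, the bar is the median of 10, and HM9, TM7, HM6 and TM3 have their own symbols. ATP2A1, CASQ1 and SLN sit highest in LDM and ATP2A2 and CASQ2 lowest, while HM9 and TM7 lie at the LDM side of their cuts for these 5 genes.

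The fast pump ATP2A1 was the most abundant of the 6 genes in each cut by median FPKM (counts per length and library total). It lies on chromosome 3 from 18547976 to 18568313 of Sscrofa11.1, plus strand (ENSSSCG00000007805). Its lowest, median and highest TMM CPM were 5382, 9482 and 13393 in PB, 1867, 5691 and 9449 in TM, 2317, 6410 and 15015 in HM, and 12565, 14515 and 19790 in LDM. All 10 TM libraries lay below the lowest LDM library, and so did 9 of 10 PB and 9 of 10 HM libraries. The TM and LDM ranges were the only ones of the 6 genes that did not overlap in TMM CPM. How many of all genes separate in this way was not computed. In FPKM the TM and LDM ranges of ATP2A1 overlapped, with 2914 in the highest TM library and 2724 in the lowest LDM library. The log2 change against LDM was -0.75 ± 0.26 in PB (SE; adjusted p = 0.0193 by edgeR), -1.41 ± 0.26 in TM (0.000151) and -1.13 ± 0.26 in HM (0.00109). LDM was also the most uniform cut for this gene, with a coefficient of variation of 14.5% in FPKM against 29.6% in PB, 47.3% in TM and 58.0% in HM.

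The slow pump ATP2A2 ran the other way. It lies on chromosome 14 from 31674757 to 31744973, plus strand (ENSSSCG00000034386). Its lowest, median and highest TMM CPM were 1464, 3585 and 4331 in PB, 744, 4556 and 5702 in TM, 748, 2174 and 3762 in HM, and 487, 857 and 1640 in LDM. Above the highest LDM library lay 9 of 10 PB, 9 of 10 TM and 8 of 10 HM libraries, and TM7 and HM9 were below the LDM median. The log2 change against LDM was 1.78 ± 0.29 in PB (adjusted p = 6.4e-06 by edgeR), 2.18 ± 0.29 in TM (3.1e-06) and 1.27 ± 0.28 in HM (0.000746), or 3.44, 4.53 and 2.42 times the LDM level. ATP2A2 is also made in smooth muscle. Against LDM its markers were higher for 7 of 9 in HM, where 16.5% of all genes were higher, and for 1 of 9 in PB and in TM. The part of smooth muscle in this result was not tested.

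Between the pumps, the balance lay with ATP2A1 in LDM and was shifted towards ATP2A2 in most libraries of the other cuts. FPKM is corrected for gene length and can be compared between genes. The lowest, median and highest share of ATP2A2 in the summed FPKM of both pumps was 7.57%, 21.6% and 35.5% in PB, 5.57%, 39.0% and 64.1% in TM, 3.60%, 24.2% and 47.4% in HM, and 1.95%, 4.14% and 8.06% in LDM. Of the 30 PB, TM and HM libraries, 27 lay above every LDM library, the lowest of these at 9.96%, and PB10, TM7 and HM9 lay within the LDM range. In TM5 and TM10 the slow pump exceeded 50% of the pump FPKM. The summed FPKM of both pumps had medians of 2653 in PB, 2326 in TM, 2063 in HM and 3723 in LDM. These shares are descriptions and were not tested.

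**Figure D2:**
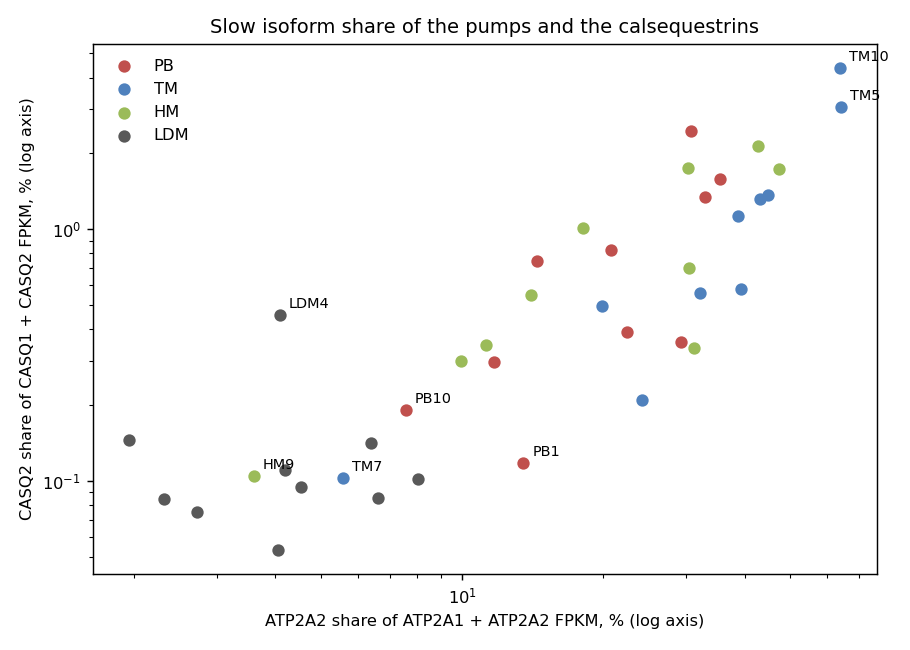
Share of ATP2A2 in the summed FPKM of ATP2A1 and ATP2A2 (x, %, log axis) against the share of CASQ2 in that of CASQ1 and CASQ2 (y, %, log axis); each point is 1 library, coloured by cut. The LDM libraries lie at or below 8.06% on x, together with PB10, TM7 and HM9, and TM5 and TM10 lie above 50%.

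Of the store proteins, the skeletal calsequestrin CASQ1 was lower in PB, TM and HM than in LDM, by a similar size in each. It lies on chromosome 4 from 90276754 to 90288011, minus strand (ENSSSCG00000006390). Its lowest, median and highest TMM CPM were 1346, 1898 and 3387 in PB, 1417, 2000 and 3334 in TM, 976, 1823 and 3864 in HM, and 2699, 4237 and 5722 in LDM. In each of PB, TM and HM 8 of 10 libraries lay below the lowest LDM library. The log2 change against LDM was -1.04 ± 0.20 in PB (adjusted p = 7.66e-05 by edgeR), -0.99 ± 0.20 in TM (0.000342) and -1.05 ± 0.20 in HM (0.000137).

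The cardiac calsequestrin CASQ2 was far less abundant and changed in the opposite direction. It lies on the same chromosome, 4, from 104918501 to 104999787, plus strand (ENSSSCG00000006745). Its lowest, median and highest TMM CPM were 8.23, 28.2 and 99.3 in PB, 8.59, 42.8 and 202 in TM, 10.2, 30.3 and 66.2 in HM, and 6.50, 9.97 and 35.1 in LDM. Above the LDM median lay 9 of 10 PB, 9 of 10 TM and 10 of 10 HM libraries, although the ranges overlapped in each pair. The log2 change against LDM was 1.49 ± 0.46 in PB (adjusted p = 0.00874 by edgeR), 2.25 ± 0.47 in TM (0.000526) and 1.44 ± 0.46 in HM (0.0145). The high LDM value is 1 library, LDM4, without which the changes were 1.80 in PB, 2.55 in TM and 1.75 in HM. CASQ2 shares 1256 bases with VANGL1 on the other strand, whose highest count in a library, 106, is close to the lowest CASQ2 count of 101, and with the strand setting of the counting not given the lowest CASQ2 values are uncertain.

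In FPKM the median CASQ2 share of both calsequestrins was 0.568% in PB, 0.853% in TM, 0.623% in HM and 0.0982% in LDM. The highest share was 4.36%, in TM10, so CASQ1 made up most of the calsequestrin transcript in each of the 40 libraries. The highest LDM share was 0.455%, in LDM4. The slow or cardiac isoform thus held a median of 39.0% of the pumps and 0.853% of the calsequestrins in TM.

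The pump inhibitor SLN was lower in PB, TM and HM than in LDM, as the fast pump was. It lies on chromosome 9 from 36232968 to 36242405, minus strand (ENSSSCG00000029651). Its lowest, median and highest TMM CPM were 684, 1050 and 1663 in PB, 327, 856 and 1840 in TM, 644, 1193 and 1734 in HM, and 1461, 2391 and 2767 in LDM. Below the lowest LDM library lay 8 of 10 PB, 9 of 10 TM and 7 of 10 HM libraries, and all 30 lay below the LDM median. The log2 change against LDM was -1.02 ± 0.23 in PB (adjusted p = 0.000531 by edgeR), -1.31 ± 0.23 in TM (7.55e-05) and -1.003 ± 0.23 in HM (0.000987). The FPKM ratio of SLN to ATP2A1 had medians of 0.440 in PB, 0.516 in TM, 0.670 in HM and 0.522 in LDM, and its ranges overlapped between the 4 cuts, from 0.287 in HM6 to 1.01 in HM3.

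The cytosolic buffer PVALB was low in each cut and its ranges overlapped in each pair. It lies on chromosome 5 from 10955491 to 10973289, plus strand (ENSSSCG00000000138), wholly inside the gene model of NCF4 on the other strand, a leukocyte gene with a median of 0.149 FPKM and at most 82 counts in a library. Its lowest, median and highest TMM CPM were 0.787, 4.10 and 10.6 in PB, 2.19, 4.49 and 14.4 in TM, 0.625, 8.06 and 107 in HM, and 2.81, 7.98 and 15.5 in LDM. The lowest library rested on 9 counts. No difference from LDM passed: the log2 change was -0.78 ± 0.59 in PB (adjusted p = 0.304 by edgeR), -0.34 ± 0.58 in TM (0.708) and 1.35 ± 0.59 in HM (0.0725), with 95% intervals of the fit from -1.94 to 0.39, from -1.49 to 0.80 and from 0.20 to 2.50. Without TM3, TM7, HM6 and HM9 the HM change was -0.055.

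Per length, the 6 genes spanned a wide range of levels. Median FPKM of ATP2A1 was 2060 in PB, 1549 in TM, 1572 in HM and 3612 in LDM, the last being rank 12 of all 21280 genes. Median FPKM of SLN was 847 in PB, 751 in TM, 991 in HM and 1900 in LDM, and that of CASQ1 was 729, 828, 728 and 1778 in the same cuts. ATP2A2 had a median FPKM of 567 in PB, 863 in TM, 398 in HM and 154 in LDM, and by these medians it exceeded CASQ1 and SLN in TM and in no other cut. CASQ2 and PVALB had median FPKM between 1.68, for CASQ2 in LDM, and 11.004, for PVALB in LDM. Together the 6 genes took a median of 1.49% of all counts in PB, 1.43% in TM, 1.25% in HM and 2.25% in LDM.

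Among PB, TM and HM 1 difference passed. PVALB was lower in PB than in HM, with a log2 change of -2.13 ± 0.61 (adjusted p = 0.00768 by edgeR); 8 of 10 PB libraries lay below the HM median. Over all genes, 27.6% were called in this pair, 13.5% higher and 14.1% lower in PB. This call rested on HM9, whose 107 TMM CPM compares with 38.4 in the next HM library, HM6. Without HM9 the change was -1.15 (adjusted p = 0.1004), and without TM3, TM7, HM6 and HM9 it was -0.71 (adjusted p = 0.318). The F test of PVALB among the 4 cuts, with an adjusted p of 0.00777, was likewise lost without HM9 (0.223). It was also lost with a block for the library number (0.108).

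PB against TM had 0 of the 6 genes called, where 23.1% of all genes were called, 13.4% higher and 9.69% lower in PB. ATP2A1 lay near the threshold, with a log2 change of 0.66 ± 0.26 and 9 of 10 PB libraries above the TM median (adjusted p = 0.0603 by edgeR). ATP2A1 passed in 7 of 11 other settings, among them a block for the library number (0.70, adjusted p = 0.0304 by edgeR). With each of 40 libraries left out in turn, it passed in 11 fits and did not in 29. The change was 0.82 without TM7. TM against HM also had 0 of 6 called, where 0.768% of all genes were called, 0.410% higher and 0.359% lower in TM. With the block, 213 of all genes were called in this pair, against 90 without it. ATP2A2 was 0.90 ± 0.28 higher in log2 in TM (adjusted p = 0.122), and without TM7 the change was 1.02 (0.0346). CASQ2 was 0.81 ± 0.45 higher in TM than in HM (0.464). At an unadjusted p under 0.05 by edgeR, 1 gene passed in PB against TM (ATP2A1) and 2 in TM against HM (ATP2A2 and PVALB). By limma-voom and by DESeq2 the adjusted counts were 1 in PB against TM and 0 in TM against HM. For CASQ1 and SLN the 95% intervals between these 3 cuts stayed between -0.75 and 0.74 in log2.

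**Figure D3:**
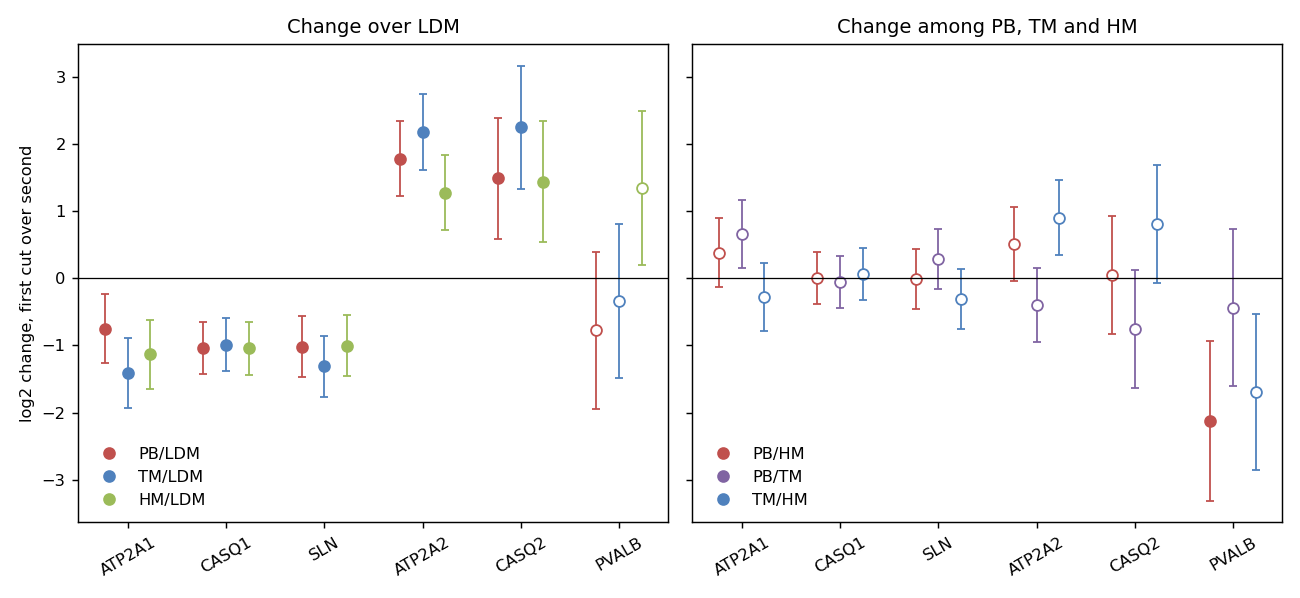
Log2 change of each gene, first cut over second, from the edgeR fit, with 95% intervals as bars; filled points have an adjusted p under 0.05 and open points do not. On the left, 5 of the 6 genes have filled points for PB, TM and HM over LDM; on the right, PVALB in PB over HM is the only filled point.

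Within a cut, SLN and ATP2A1 moved together across libraries. Over 10 libraries each, Pearson's r of log2 TMM CPM was 0.83 in PB, 0.91 in TM, 0.73 in HM and 0.56 in LDM, and Spearman's rho 0.79, 0.85, 0.77 and 0.66 in the same cuts. Of 20 relations computed (5 pairs of genes in 4 cuts, permutation test of 100000 resamples, two-sided, Benjamini-Hochberg adjusted), 3 passed by r: SLN with ATP2A1 in PB (adjusted p = 0.0356) and in TM (0.0206), and PVALB with ATP2A1 in HM (r = 0.80, adjusted p = 0.0381). None passed by rho, the smallest adjusted p being 0.0523, with 10 of 20 at an unadjusted p under 0.05. Without the 2 libraries farthest from the median of ATP2A1, r was 0.79 in PB, 0.75 in TM and, for PVALB, 0.64 in HM, each in the same direction as with all 10. None of the 20 then passed by r (exact permutation test over 8 libraries, smallest adjusted p 0.257), with fewer libraries and a narrower range.

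The isoform pairs had opposite signs within cuts but did not pass. ATP2A1 with ATP2A2 had r of -0.73 in PB, -0.44 in TM, -0.68 in HM and -0.40 in LDM (adjusted permutation p from 0.0592 to 0.297, n = 10). CASQ1 with CASQ2 had r of -0.71 in PB, -0.66 in TM, -0.69 in HM and -0.32 in LDM. ATP2A2 with CASQ2 had r of 0.66 in PB, 0.68 in TM, 0.69 in HM and -0.15 in LDM. All of these share library depth and scaling.

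**Figure D4:**
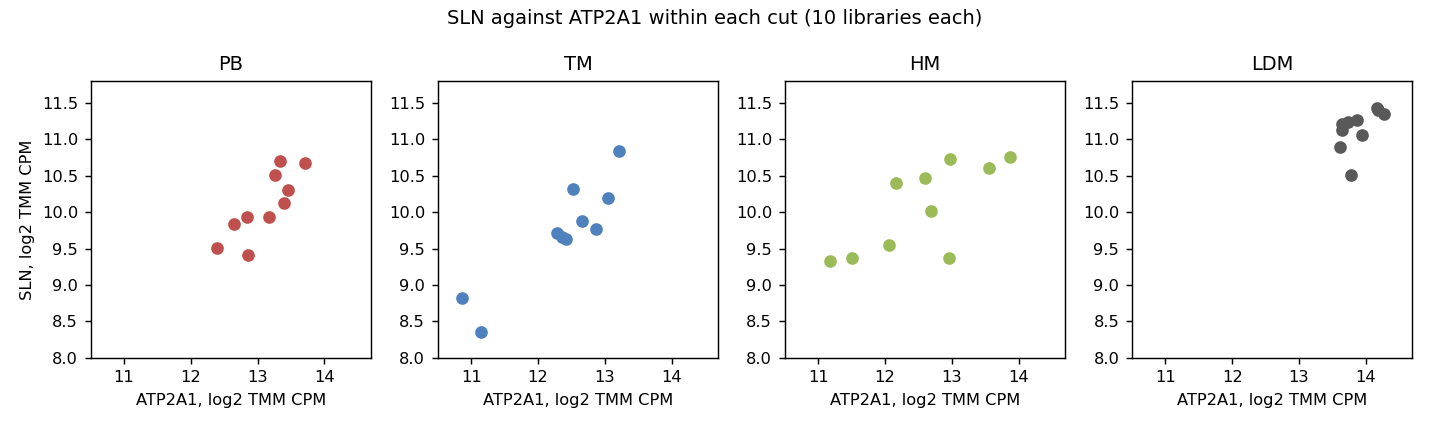
SLN against ATP2A1 in log2 TMM CPM, 1 panel per cut with 10 libraries each (points). Pearson's r is 0.83 in PB, 0.91 in TM, 0.73 in HM and 0.56 in LDM; in TM 2 libraries at the lower left extend the range.

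For each of the 6 genes, the 2 genes with the most similar pattern over the 40 libraries are given as a description. Likeness was the root mean square difference of log2 TMM CPM, each gene centred on its mean. MYBPC2, the fast myosin binding protein, differed from ATP2A1 by 0.245 and PYGM, muscle glycogen phosphorylase, by 0.292, against a spread of 0.838 of ATP2A1 itself. MYL1, a fast myosin light chain, and TNNI2, fast troponin I, differed from SLN by 0.258 and 0.282. TPM3, slow tropomyosin, and MYH7, slow myosin, differed from ATP2A2 by 0.420 and 0.426 (own spread 1.04), although the model named MYH7 in the table, on chromosome 7 from 75650445 to 75709232, is called MYH6 in the reference names. TNNT1, slow troponin T, and MYL2, a slow myosin light chain, differed from CASQ2 by 0.619 and 0.638. HIF1AN, the hydroxylase that acts on HIF1A, and LRRC28 differed from CASQ1 by 0.233 and 0.247. PVALB had no close partner: the nearest, RAB11FIP4 and SCN4B, both differed by 1.19 against its own spread of 1.40. Among the 6 genes, CASQ1 and SLN (0.401), ATP2A1 and SLN (0.407) and ATP2A1 and CASQ1 (0.490) were closest, and ATP2A2 and CASQ2 differed by 0.862.

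The wider calcium pathway was counted in 5 lists, in which a gene said to be higher or lower had an adjusted p under 0.05 by edgeR. Against LDM, 41.7% of all genes were called in PB, 24.7% in TM and 32.5% in HM. The median log2 change over all genes was -0.02 in PB, 0.04 in TM and 0.08 in HM. Of 19 genes of the triad and calcium release, the junction between T-tubule and store, 2 were higher and 7 lower in PB than in LDM, 0 higher and 7 lower in TM, and 1 higher and 10 lower in HM. The genes called made up 47.4% of the list in PB, against 41.7% of all genes, 36.8% in TM, against 24.7%, and 57.9% in HM, against 32.5%, so that the share in PB was near that of all genes. Their median log2 changes were -0.29, -0.38 and -0.50. STAC3, an adaptor of the voltage sensor, was lower in PB (-0.97 ± 0.13), TM (-1.02 ± 0.13) and HM (-0.73 ± 0.13) than in LDM. BIN1, which shapes T-tubules, was lower by the same measure at -0.87 ± 0.13 in PB, -0.85 ± 0.13 in TM and -0.88 ± 0.13 in HM. Adjusted p of these 6 changes were at most 5.53e-05 by edgeR.

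TRDN (triadin), the store membrane protein that ties calsequestrin to the release channel, was higher in PB than in each other cut. It averaged 934 ± 398 TMM CPM in PB, 181 ± 87.7 in TM, 202 ± 86.4 in HM and 201 ± 117 in LDM (SD, n = 10 each). PB exceeded LDM by 2.21 ± 0.32 in log2 (adjusted p = 9.75e-07 by edgeR), HM by 2.21 ± 0.32 (2.17e-06) and TM by 2.37 ± 0.32 (8.65e-07), whereas TM and HM against LDM were -0.16 ± 0.30 (0.743) and 0.0049 ± 0.30 (0.992). In FPKM the lowest PB library, at 92.6, lay above the highest HM library at 67.6 and the highest LDM library at 85.3, and below the highest TM library at 102. Of the 19 genes of the list, 3 were higher and 3 lower in PB than in HM, and 2 higher and 0 lower in PB than in TM. Over all genes, 27.6% were called in PB against HM (13.5% higher and 14.1% lower). In PB against TM 23.1% were called (13.4% higher and 9.69% lower), so these counts are not read as a trait of the list.

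Of the store lumen and small regulators, 10 of 13 listed genes were tested. In PB against LDM 1 was higher and 2 lower, in TM 4 higher and 1 lower, and in HM 5 higher and 2 lower (median log2 changes -0.03, 0.47 and 0.42). The genes called were 30% of those tested in PB, 50% in TM and 70% in HM, against 41.7%, 24.7% and 32.5% of all genes in the same cuts. S100A1, a calcium binding protein that acts on the pump and the release channel, was higher in PB (1.73 ± 0.31), TM (1.24 ± 0.31) and HM (1.69 ± 0.31) than in LDM (adjusted p at most 0.00301 by edgeR). MRLN (myoregulin), a pump-inhibiting peptide like SLN, averaged 1.92 ± 1.88 CPM in PB, 1.38 ± 0.914 in TM, 0.659 ± 0.318 in HM and 3.60 ± 1.57 in LDM. It was lower than in LDM by -1.37 ± 0.40 in TM (adjusted p = 0.0105) and -2.43 ± 0.43 in HM (5.26e-05), had a change of -0.90 ± 0.40 in PB (0.0638), and was 1.52 ± 0.43 higher in PB than in HM (0.00685). ATP2A3, the third pump gene and mostly non-muscle, averaged at most 12.1 CPM in a cut and was higher in TM (0.53 ± 0.18) and HM (0.79 ± 0.18) than in LDM and lower in PB than in HM (-0.99 ± 0.18). HRC, a histidine-rich calcium binding protein of the store lumen, had changes from -0.087 to 0.00035 against LDM (adjusted p at least 0.681).

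Of 13 tested genes (14 listed) of store refilling and plasma membrane transport, 1 was higher and 3 lower in PB than in LDM, 0 higher and 1 lower in TM, and 2 higher and 3 lower in HM (medians -0.19, -0.15 and -0.11). These were 30.8% of the tested genes in PB, 7.69% in TM and 38.5% in HM, below the 41.7% and 24.7% of all genes in PB and TM and near the 32.5% in HM. The plasma membrane pump ATP2B1 averaged 113 ± 16.2 CPM in PB, 59.6 ± 21.5 in TM, 51.2 ± 15.9 in HM and 74.0 ± 26.8 in LDM, and was higher in PB than in LDM (0.62 ± 0.20), HM (1.147 ± 0.20) and TM (0.93 ± 0.20), and lower in HM than in LDM (-0.53 ± 0.20). Its paralog ATP2B2 was lower in TM (-1.57 ± 0.54) and HM (-2.43 ± 0.56) than in LDM, with -1.28 ± 0.53 in PB (adjusted p = 0.0518 by edgeR). SLC8A1, a sodium-calcium exchanger, was higher in HM than in LDM (1.19 ± 0.25). Markers of vessels were also counted against LDM. Of all genes, 20.5% were higher in PB, 11.3% in TM and 16.5% in HM. Of 9 smooth muscle and pericyte markers 1 was higher in PB, 1 in TM and 7 in HM. The 1 of 9 in PB and in TM did not exceed the share of all genes. Summed CPM of these markers ran from 240 to 668 in PB, 560 to 1908 in TM, 613 to 7813 in HM and 447 to 762 in LDM. Of 8 endothelial markers 2 were higher in PB, 7 in TM and 6 in HM, with summed CPM from 264 to 548 in PB, 386 to 888 in TM, 374 to 1165 in HM and 322 to 438 in LDM, and their part in these results was not tested. The refilling sensor STIM1 had changes from -0.066 to 0.14 against LDM (adjusted p at least 0.531).

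Cytosolic sensors and the calcineurin-NFAT route had 17 tested genes (19 listed), with 2 higher and 8 lower in PB than in LDM, 3 higher and 10 lower in TM, and 4 higher and 9 lower in HM (medians -0.41, -0.54 and -0.38). Called genes made up 58.8% of the list in PB, 76.5% in TM and 76.5% in HM, where 41.7%, 24.7% and 32.5% of all genes were called. The calcineurin subunit PPP3R1 (-0.93 ± 0.20 in PB, -1.09 ± 0.20 in TM, -1.39 ± 0.20 in HM) was lower than in LDM. RCAN2, a regulator that binds calcineurin, was higher, by 1.52 ± 0.29 in PB, 2.03 ± 0.30 in TM and 2.33 ± 0.30 in HM. MYOZ2, the slow fibre calsarcin of this list, is also on the slow marker list and MYOZ1 is its fast relative. Of 12 genes of mitochondrial calcium uptake, 2 were higher and 3 lower in PB, 2 higher and 1 lower in TM, and 1 higher and 0 lower in HM than in LDM (medians 0.09, 0.23 and 0.24). With 41.7% of the list called in PB, 25% in TM and 8.33% in HM, the shares were near the 41.7% and 24.7% of all genes in PB and TM and below the 32.5% in HM. MICU3, a gatekeeper of the uniporter, was higher by 2.14 ± 0.30 in PB, 0.86 ± 0.30 in TM and 0.85 ± 0.30 in HM than in LDM, and by 1.29 ± 0.29 in PB than in both HM and TM, at levels of 0.659 to 2.95 mean CPM.

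**Figure D5:**
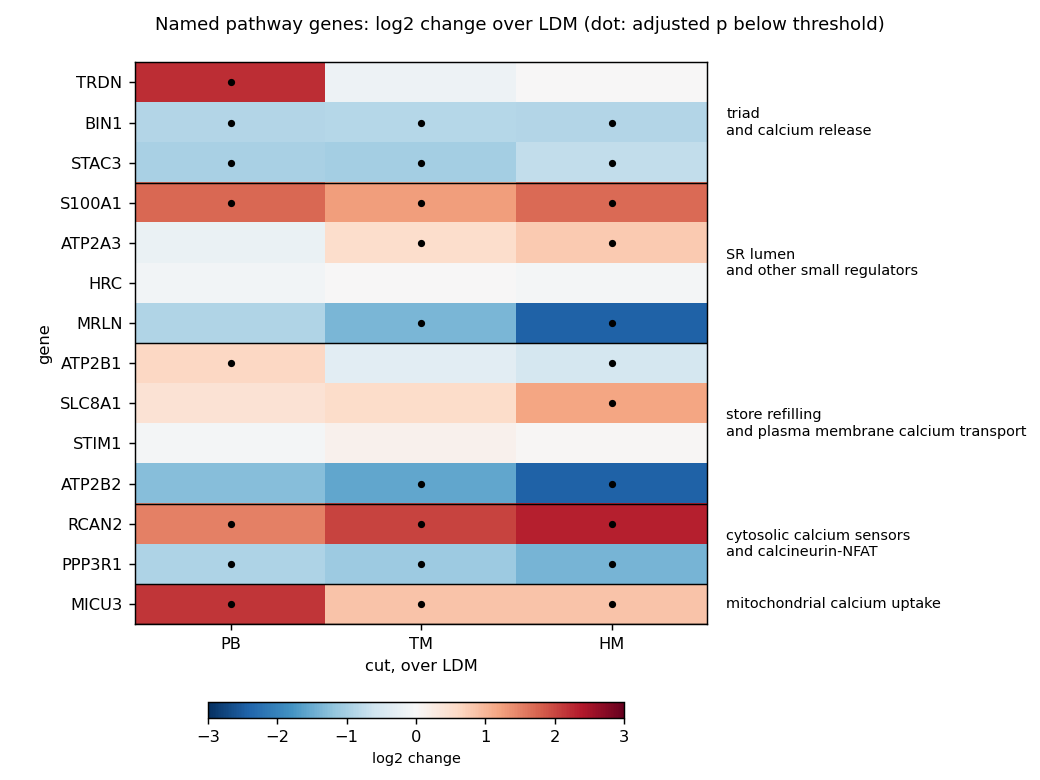
Log2 change of PB, TM and HM over LDM (colour, from -3 to 3) for 14 genes named from the 5 pathway lists, grouped by list; a dot marks an adjusted p under 0.05 by edgeR. TRDN is red in the PB column alone, at 2.21, and STAC3 and BIN1 are blue in the PB, TM and HM columns.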

How the data were processed

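Messenger RNA was sequenced from muscle with a KAPA stranded kit after Trizol extraction, per the labels' protocols. Tools in the submitters' processing notes are HISAT2 2.0.5, HTSeq 0.9.1, cutadapt 1.15 and the build Sscrofa11.1, with no role or order. Whether counting used strand is not stated there. The authors deposited whole-number read counts per gene and FPKM for 40 libraries. The deposited FPKM equal the count over length and library total for 100% of counts above 0 (relative tolerance 0.001), so the counts were tested and FPKM was used to compare genes.

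Libraries were grouped by title. The test was that of edgeR 4.0.16 (R 4.3.3): TMM scaling, filterByExpr by cut (11713 of 21280 genes left), a robust quasi-likelihood fit of the 40 libraries with cut as the only factor, 6 contrasts and an F test, and Benjamini-Hochberg adjustment over all genes tested at 0.05. The fit was tested on simulated data. CPM of single genes are TMM-scaled, summed marker CPM are not, and log2 CPM used a prior count of 2. Libraries within a cut differed by a chi-square of at least 29.8 per gene, so none were merged. The members, the lists and the 4 libraries left out were chosen with earlier results of these data known. Named genes are the 6 genes, the 3 genes of each list with the smallest adjusted p of the F test, and the 2 genes most like each of the 6. Some genes that this rule names are not reported here. HRC, STIM1 and MYOZ2 were named after their values were seen. Symbols not in the table were taken from reference names by identifier or position (at least 50% reciprocal overlap). No sequence was used here. Alternatives were RLE and upper-quartile scaling, mitochondrially encoded genes taken out, no filter, a block for the library number, a filter of 1 CPM in 10 libraries, the pair alone, limma-voom (limma 3.58.1), DESeq2 1.42.0, PB1 or 4 libraries left out, and each library left out. The pathway list counts without PB1 or the 4 libraries were added after the data were seen.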

Additional observations from a re-analysis of the deposited data

Results flagged for a closer look

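In the LDM libraries, LDM4 had a CASQ2 level of 35.1 TMM CPM, against 15.9 in the next LDM library. In the HM libraries, HM9 had a PVALB level of 107 TMM CPM, against 38.4 in the next, HM6. Dixon's 95% critical value for 10 libraries was exceeded in these 2 of 24 groups (6 genes in 4 cuts), on TMM CPM without logs. Chance flags about 1 in 20 groups only where values are normally distributed, which was not checked, so these flags do not measure chance here. In log2 TMM CPM, PVALB was 6.74 in HM9, 5.27 in HM6 and -0.40 in the lowest HM library, HM2. The rule was not applied on the log scale. HM9 was also the highest HM library for ATP2A1, CASQ1 and SLN, and LDM4 was the lowest LDM library for ATP2A1 in FPKM, at 2724.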

How the results depend on the processing

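The calls of ATP2A1, ATP2A2, CASQ1, CASQ2 and SLN against LDM kept their direction and their side of the threshold in all 11 alternatives and with each of 40 libraries left out. Scaling alone moved no log2 change of the 6 genes by more than 0.08. The rule used for pairing, that all same-numbered correlations of deviations exceed 0.1, was not met over the 6 pairs of cuts. Of 60 such correlations 52 exceeded 0.1 (from -0.13 to 0.51). In 31 of these 60 comparisons the library of the first cut fitted best with its own number in the second cut. By pair of cuts the medians of the same-numbered correlations ran from 0.19 to 0.28, against -0.044 to -0.028 for differently numbered libraries. Same-numbered libraries were thus partly alike, and the main fit does not use this. In HM against LDM alone all 10 exceeded 0.1, and there the block changed no call of the 6 genes. With the replicate block, ATP2A1 in PB against TM was 0.70 (adjusted p = 0.0304), SLN in PB against HM 0.019, the F test of PVALB had an adjusted p of 0.108, and 213 genes were called in TM against HM, against 90 without it. ATP2A1 in PB against TM also passed with RLE scaling (0.70), mitochondrially encoded genes out (0.73), without HM6, HM9, TM3 and TM7 (0.76), in the pair alone (0.70), by limma-voom (0.78) and by DESeq2 (0.70), giving a count of 1 gene higher there. By limma-voom ATP2A1 in PB against HM passed at 0.70 (1 gene higher) and PVALB did not, at -1.22 (0 lower). Without HM6, HM9, TM3 and TM7 PVALB in PB against HM was -0.71 (0 lower). The F test of PVALB had an adjusted p of 0.427 without these libraries and 0.182 by limma-voom. Genes called in TM against HM numbered 312 by limma-voom and 199 by DESeq2. The cause of these changes was not tested. Signs turned for differences and correlations that did not pass: PVALB in HM against LDM to -0.055 without those 4 libraries and -0.033 by limma-voom; in PB against HM, CASQ1 to -0.0088 with upper-quartile scaling and -0.050 without PB1, CASQ2 to -0.13 without the 4 and -0.19 by limma-voom, and SLN to 0.019 with RLE and DESeq2, 0.059 with mitochondrially encoded genes out, 0.011 without the 4, 0.0041 in the pair alone and 0.027 by limma-voom; CASQ1 in PB against TM to 0.015 with mitochondrially encoded genes out and 0.0050 without the 4; and, without 2 libraries, r to 0.14 for CASQ1 with CASQ2 in LDM and -0.025 for ATP2A1 with PVALB in TM. The 3 correlations that passed were 0.64, 0.79 and 0.75 without 2 libraries. With each library left out in turn, log2 changes ran from 0.41 to 1.50 for PVALB in HM against LDM (passing without HM2 or HM5), from -2.34 to -1.15 for PVALB in PB against HM, from 0.28 to 0.67 for ATP2A1, -0.10 to 0.25 for CASQ1, -0.26 to 0.21 for CASQ2 and -0.090 to 0.16 for SLN in PB against HM, from 0.56 to 0.82 for ATP2A1 and -0.16 to 0.095 for CASQ1 in PB against TM, and from 0.82 to 1.02 for ATP2A2 and -0.052 to 0.24 for CASQ1 in TM against HM. The adjusted p of the F test of PVALB then ran from 0.00257 to 0.223, counts of members called higher in PB/HM, PB/TM and TM/HM and lower in PB/HM from 0 to 1, and genes called in TM against HM from 52 (without TM2 or TM4) to 135. From counts, not corrected for length, the CASQ2 share was 1.42% in PB, 1.55% in HM and 0.247% in LDM, and SLN over ATP2A1 was 0.128 in PB, 0.150 in TM, 0.194 in HM and 0.151 in LDM. Of 60 pathway list counts without PB1 or the 4 libraries 57 stayed within 1.5 times; without the 4, store refilling had 3 genes called in TM against LDM, and in PB against TM the store lumen had 2 and the cytosolic sensors 3. Depth limits PVALB most, with as few as 9 counts in a library.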
